A study of Rattus norvegicus with 6 samples.

Results

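Carbonic anhydrases interconvert carbon dioxide and water with bicarbonate and a proton, and most of them hold a catalytic zinc ion. They work beside membrane transporters, such as the sodium-proton exchangers and the sodium-bicarbonate cotransporters, which move protons out of the cell or bicarbonate into it. In heart muscle this partnership is known for setting intracellular pH, to which contraction is sensitive. The gene Car9, which encodes a membrane-bound isoform, is a textbook target of hypoxia-inducible factor (HIF). The genes described here are 7 carbonic anhydrase genes (Car2, Car3, Car8, Car9, Car11, Car12 and Car13) and 2 transporter genes (Slc9a3 and Slc4a7), 9 listed genes in all. They were chosen by symbol, with the siMt2 against siNT difference in library-scaled counts in view. That difference is therefore a description for these genes, and no test is given for it. Of the 9, 7 had a row among the 18237 rows of counts, and 6 passed the filter on low counts that left 11726 genes to test; Car2 and Car13 were not analysed here.

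The libraries came from cultured rat myocardial cells labelled NRVM, the usual short form of neonatal rat ventricular myocytes, which the growth protocol derives from the embryonic heart. Cells carried an siRNA aimed at Mt2 (siMt2, n = 3 libraries), a metallothionein gene whose product binds zinc, or a non-targeting control siRNA (siNT, n = 3 libraries). Serum-containing medium was shared by both groups, and the extract protocol of all 6 libraries also names dexamethasone, isobutylmethylxanthine and insulin without saying whether these cells were given them. No genotype, strain, age or transfection time is given in the labels, nor whether replicates were separate cultures, so p-values and SDs cover only how far these libraries vary, possibly for technical reasons alone.

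Library totals lay between 2859759 counts (siMt2 replicate 3) and 6817777 counts (siMt2 replicate 1), so that the most a count of 0 leaves possible, 3 counts, was worth 0.438 to 1.06 CPM (CPM is the count scaled to a common library size, here with TMM factors). Mt2a, the rat gene for the targeted transcript, stood at 70.7, 87.3 and 142 CPM in the siMt2 libraries, against 90.7, 170 and 93.3 CPM in the siNT libraries. The groups overlapped (log2 fold change -0.28, SE 0.42; edgeR adjusted p = 0.631; exact two-sided permutation p = 0.5, with 0.1 the lowest that this design can reach), so groups are named by their labels throughout and every direction below rests on those labels. Defining heart muscle markers were near 0 in both groups, with 9 counts of Myh6, 4 of Actc1 and 3 of Tnni3 over all 6 libraries together; the heart marker list (9 of 10 genes with a row) summed to 51.3 to 63.7 CPM in siMt2 and 29.3 to 32.2 CPM in siNT libraries, nearly all of it Tnnt2 with 1201 counts. Fibroblast markers (8 of 8 with a row) summed to 8750 to 12598 CPM in siMt2 and 6425 to 6574 CPM in siNT libraries. Most of this sum was the collagen gene Col1a1 with 189029 of 260785 counts, while Dcn had 50, Lum 51 and Pdgfra 2. Of 7 tested, 6 were higher by edgeR, against 25.8% of all genes tested. Most defining markers of the labelled cell type were thus absent or nearly so.

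Promoter stretches are shown for the 3 genes whose sequence around the annotated start held ACGTG, a form of the core that HIF binds. The core was searched only as ACGTG, on both strands, and other forms of it were not searched. It was chosen because Car9 had the highest fold change among these genes and is a known HIF target. RefSeq promoters (assembly GRCr8, 250 bases before and 50 bases after the start) matched 4 of the 9 genes: Car9, Car11, Car12 and Slc9a3. Each stretch is 30 bases, 5′ to 3′ on the gene's own strand, and capitals mark ACGTG or its reverse complement. The Car9 stretch is chr5:62559013-62559042 (plus strand), the Car12 stretch chr8:76169825-76169854 (plus strand) and the Slc9a3 stretch chr1:30996070-30996099 (minus strand), all in GRCr8, whereas the counts were made on rn6.
Car9: ttatttccgatgCACGTacagcccgtccac
Car12: ACGTGcacgctttggtcccaggctACGTGc
Slc9a3: actgtttgcattCACGTGcgcagcgggggc

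In Car9 the match lay on the opposite strand, at bases 2 to 6 after the start. Car12 held 2 matches on its own strand, at bases 11 to 15 and 35 to 39. In Slc9a3 a pair of matches, 1 on each strand, overlapped in the palindrome between bases -85 and -80. Car11 had no ACGTG in the window. Of all 33469 RefSeq promoters of this length, 19.3% held ACGTG on either strand. The core of the metal response element, to which the zinc-sensing factor MTF1 binds, was searched as TGCACNC or TGCGCNC on both strands. It occurred in Car11 (3 matches), Car12 (2 matches) and Slc9a3 (1 match) and not in the Car9 window, against 24.2% of all promoters. In Car12 and Slc9a3 these matches overlapped ACGTG. The letters alone do not show that a factor binds, and genes with ACGTG included 1 higher, 1 lower and 1 overlapping between the groups.

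**Figure D1:**
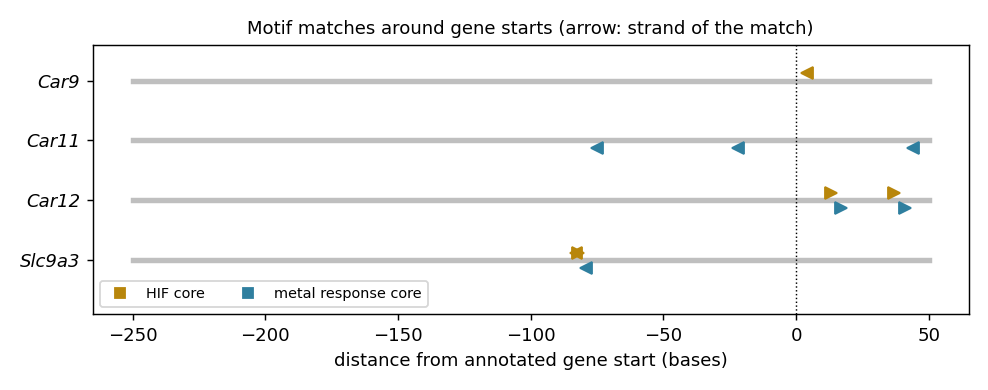
Matches to the HIF core (gold, searched only as ACGTG) and the metal response core (blue) along the 4 RefSeq promoters. Positions are in bases from the annotated start (dotted line), with arrows for the strand of each match. Car9 has a single gold match just after the start, and Car12 has 2 matches of each colour there. The Slc9a3 and Car11 matches lie mostly before the start.

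The 6 genes with enough counts differed in opposite directions. Car3, Car9 and Car11 were higher in the siMt2 libraries, Slc9a3 and Slc4a7 were lower, and Car12 overlapped. The groups of 3 libraries did not overlap for 5 of these 6 genes, 3 higher and 2 lower; over all 11726 genes tested, 57.6% had groups that did not overlap. The median log2 fold change was 0.43 over the 6 genes and 4.90e-04 over all genes. CPM is not divided by transcript length here, so levels are compared between libraries and not between genes. In such bulk libraries, fewer cells that express a gene and less RNA per cell cannot be told apart.

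Car9 encodes carbonic anhydrase IX, which sits in the plasma membrane with its active site outside the cell. Its level was 73.6, 77.3 and 87 CPM in the siMt2 libraries, against 11.2, 11.7 and 12 CPM in the siNT libraries. Each siMt2 library was far above every siNT library, and the siNT libraries lay close together. The means were 79.3 ± 6.91 CPM (siMt2) and 11.6 ± 0.386 CPM (siNT; SD, n = 3 each). The siMt2 mean was 6.82-fold the siNT mean, and the fitted log2 fold change was 2.75 (SE 0.12). This was the 33rd highest fold change of all 11726 genes tested. The siNT counts behind it were 62, 49 and 78, and the smallest had a counting error of 14.3%, larger than the 3.32% by which these libraries varied.

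Car12 encodes carbonic anhydrase XII, the other membrane-bound isoform among these genes with an active site facing outward, and is also known to respond to hypoxia in some cells. Its level was 8.47, 6.86 and 10.2 CPM in the siMt2 libraries, against 7.23, 7.41 and 8.43 CPM in the siNT libraries. The lowest and the highest of the 6 values were both siMt2 libraries, and the siNT values lay between them. The log2 fold change was 0.12 (SE 0.23), from counts of 29 to 58 per library. In GRCr8 a long non-coding RNA gene overlaps Car12, and the sources used here do not say whether counting used strand, so reads of the pair cannot be told apart.

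Car3 encodes carbonic anhydrase III, a cytosolic isoform of low catalytic activity that is abundant in slow skeletal muscle and in fat. Its level was 582, 546 and 567 CPM in the siMt2 libraries, against 204, 190 and 185 CPM in the siNT libraries. The groups lay wide apart, with replicates that varied by 3.25% (siMt2) and 5.1% (siNT) of their mean. The means were 565 ± 18.4 CPM (siMt2) and 193 ± 9.84 CPM (siNT; SD, n = 3 each). This is a 2.93-fold ratio, with a fitted log2 fold change of 1.55 (SE 0.05). It had the most counts of the genes described here, 7908 in siMt2 and 3128 in siNT libraries.

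Levels of muscle and fat markers stood beside Car3 as follows. For comparison, 25.8% of all genes tested were higher and 25.1% lower by edgeR. Smooth muscle markers (5 of 5 listed with a row) summed to 4084 to 4175 CPM in siMt2 and 2315 to 2354 CPM in siNT libraries, a 1.77-fold ratio of means, and of 5 tested 4 were higher and 1, Pdgfrb, lower by edgeR. Among them the actin-binding gene Tagln had 3.34-fold and the actin gene Acta2 1.75-fold the siNT mean in siMt2 libraries. Skeletal muscle markers (7 of 8 listed with a row) summed to 41.6 to 43.5 CPM in siMt2 and 32.8 to 33.5 CPM in siNT libraries. Of 3 tested, Myod1 (log2 fold change 0.46, SE 0.14) and Tnnt3 (0.72, SE 0.21) were higher by edgeR, and Myog (-1.47, SE 0.37) was lower. Ckm had 26 counts over all 6 libraries, Myh3 26, Acta1 30 and Tnnt1 14. Adipocyte markers (4 of 7 listed with a row) summed to 0.73 to 2.36 CPM in siMt2 and 2.76 to 4.54 CPM in siNT libraries. Over all 6 libraries together, the lipase gene Lipe had 59 of their 74 counts, and Plin1 had 4, Cfd 5 and Pparg 6. Lipe was the 1 gene of this list tested, and it was lower (log2 fold change -1.28, SE 0.50; edgeR adjusted p = 0.0395). The part of the muscle, fat and fibroblast markers in the Car3 difference was not tested.

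In GRCr8, Car3 lies between Car2 and Car1 in a run of carbonic anhydrase genes that also holds Car13. Car1, the erythrocyte isoform, had 2, 3 and 2 counts in the siMt2 libraries and 0, 0 and 0 in the siNT libraries. All of these counts are at or under 3, so no fold is given, and the erythroid markers with a row (3 of 6 listed) had 23 counts in all. These neighbours are related in sequence, and the sources used here do not say how reads matching several genes were counted.

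Car11 and Car8 encode carbonic anhydrase-related proteins, which lack the zinc-bound active site of the enzymes. Car11 stood at 10.2, 10.4 and 11.3 CPM in the siMt2 libraries, against 7.23, 6.69 and 5.06 CPM in the siNT libraries. The groups did not overlap, although the siNT libraries varied by 17.9% of their mean. The means were 10.6 ± 0.56 CPM (siMt2) and 6.33 ± 1.13 CPM (siNT; SD, n = 3 each), and the fitted log2 fold change was 0.75 (SE 0.23). Without siNT replicate 3, the lowest of the 6, it was 0.59. Car8, whose protein binds an inositol trisphosphate receptor in cerebellar Purkinje cells, had 2 counts in siMt2 replicate 1 and 0 in the other 5 libraries. It did not pass the filter on low counts, and no change could be seen at this depth: exact Poisson 95% intervals, which cover counting error only, reached up to 0.519 CPM in siMt2 and 0.227 CPM in siNT.

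**Figure D2:**
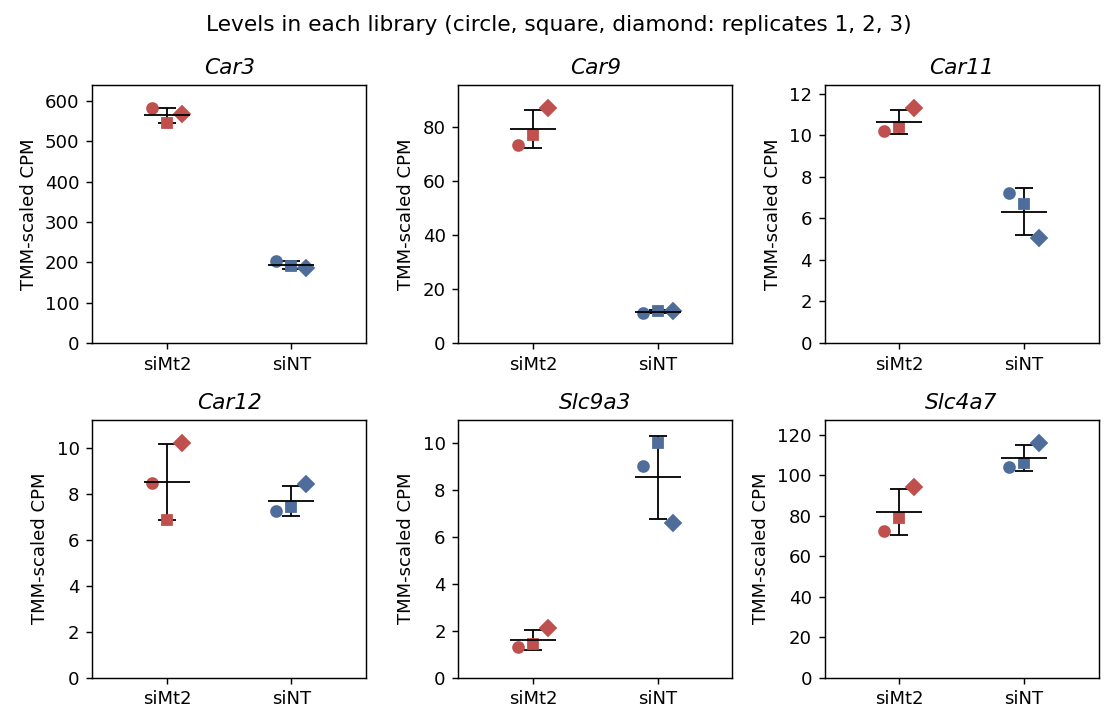
TMM-scaled CPM of the 6 genes that passed the filter, in each siMt2 (red, left) and siNT (blue, right) library. Horizontal lines are means and bars are SD (n = 3 each). Car3, Car9 and Car11 stand higher in every siMt2 library, Slc9a3 and Slc4a7 stand lower, and the Car12 groups overlap.

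Slc9a3 encodes NHE3, the sodium-proton exchanger of the apical membrane in kidney proximal tubule and gut. Its level was 1.31, 1.42 and 2.11 CPM in the siMt2 libraries, against 9.03, 10 and 6.59 CPM in the siNT libraries. Every siMt2 library was below every siNT library, with a gap wider than the range of either group. The means were 1.62 ± 0.434 CPM (siMt2) and 8.55 ± 1.77 CPM (siNT; SD, n = 3 each). The siNT mean was 5.3-fold the siMt2 mean, and the fitted log2 fold change was -2.45 (SE 0.34). It had the 14th lowest fold change of all genes tested. The counts were small, at 9, 6 and 6 in siMt2 and 50, 42 and 43 in siNT libraries. A counting error of 40.8% on the smallest of them is larger than the 26.9% by which the siMt2 libraries varied.

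Epithelial markers are given because Slc9a3 is best known from epithelia. Those with a row (3 of 6 listed) summed to 31.0 to 37.1 CPM in siMt2 and 18.1 to 20.2 CPM in siNT libraries. Nearly all of this was the keratin gene Krt8, with 789 counts over all 6 libraries, the 1 gene of the list tested (log2 fold change 0.86, SE 0.12; edgeR adjusted p = 8.27e-06). Krt18 had 3 counts and the brush-border gene Vil1 10, so the list gives no direction beyond Krt8. Its part in the Slc9a3 difference was not tested.

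Slc4a7 encodes NBCn1, which brings sodium and bicarbonate into the cell together without moving net charge. Its level was 72.4, 79 and 94.4 CPM in the siMt2 libraries, against 104, 106 and 116 CPM in the siNT libraries. The groups did not overlap, but siMt2 replicate 3 lay closer to the lowest siNT library than to the next siMt2 library. The means were 81.9 ± 11.3 CPM (siMt2) and 109 ± 6.32 CPM (siNT; SD, n = 3 each), and the fitted log2 fold change was -0.44 (SE 0.09). Among the 5 genes whose groups did not overlap, this was the change nearest to 0.

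In 5 of the 6 genes, all but Car3, siMt2 replicate 3 was the highest of its group. It had the fewest counts of all libraries and was the highest of its group for 41.2% of all genes tested. Its part in the levels was not tested, but the 6 fold changes kept their sign without it: the log2 fold change was then 2.69 for Car9 and -0.53 for Slc4a7, and 0.01 for Car12. Over 14 alternative settings Car3 ranged from 1.52 to 1.59, Car9 from 2.69 to 2.81, Car11 from 0.59 to 1.02, Slc9a3 from -2.62 to -2.19 and Slc4a7 from -0.53 to -0.33. Car12, at 0.12, ranged from 0.01 to 0.45, the upper end with libraries thinned to equal depth.

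**Figure D3:**
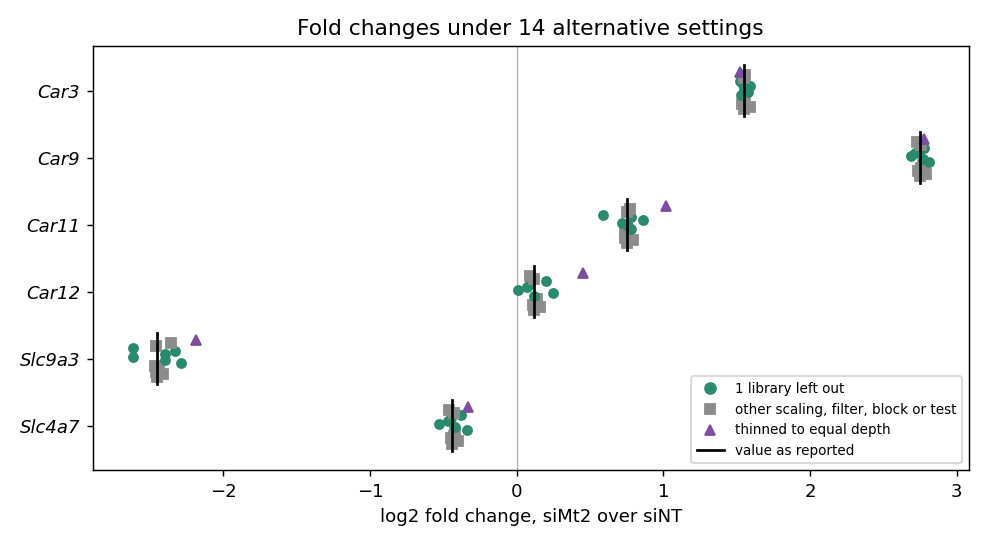
Log2 fold changes of siMt2 over siNT for the 6 genes under 14 alternative settings (points) and as reported (black lines). The points stay on one side of 0 for each gene, closest to it for Car12 at 0.01.

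The rest of the acid-base machinery was read from 8 lists of 71 genes, of which 53 had a row and 30 were tested. By edgeR's quasi-likelihood test at an adjusted p of 0.05, 7 rose and 5 fell in the siMt2 libraries, 40.0% of those tested, with a median log2 fold change of -0.11. Over all genes 50.9% passed, 25.8% higher and 25.1% lower, so the share on these lists was no higher than that of all genes.

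Among carbonic anhydrases outside the 9 genes, 5 of 9 listed had a row and 2 were tested. Car5b (named Ca5b in the counts), a mitochondrial isoform, fell to 30.8, 31.9 and 35.2 CPM in siMt2 libraries, against 47.3, 41.6 and 55.2 CPM in siNT libraries (log2 fold change -0.58, SE 0.12; edgeR adjusted p = 3.04e-04). Car14, a membrane-bound isoform, did not pass (0.11, SE 0.27; edgeR adjusted p = 0.756). Car6 and Car7 had 2 and 5 counts in all.

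Of 3 other sodium-proton exchanger genes tested, 2 rose and 1 did not pass. Slc9a8, which encodes an exchanger of the Golgi, rose to 39.7, 46.6 and 45.4 CPM in siMt2 libraries, against 28, 33.9 and 31.1 CPM in siNT libraries (log2 fold change 0.49, SE 0.11; edgeR adjusted p = 0.00104). Slc9a9, which encodes an exchanger of endosomes, rose as well (0.59, SE 0.24; adjusted p = 0.0436), at 11.4, 13.5 and 23.9 CPM in siMt2 and 11.2, 9.56 and 9.81 CPM in siNT libraries. Its call was lost without siMt2 replicate 3, the highest value (log2 fold change 0.27, adjusted p = 0.277), and also without any 1 siNT library (0.0701 to 0.132), in DESeq2 (0.0558) and in limma-voom (0.112). Slc9a5 did not pass (-0.19, SE 0.16).

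Of 6 genes tested on the list of other bicarbonate transporters, 2 fell and 0 rose. The list holds genes of the Slc4 and Slc26 families, and what each of them carries was not checked. Slc4a11, from the same family as Slc4a7, fell to 3.5, 4.26 and 3.17 CPM in siMt2 libraries, against 12.1, 10.5 and 13.5 CPM in siNT libraries (log2 fold change -1.72, SE 0.24; edgeR adjusted p = 6.25e-06). Slc4a10, which encodes a sodium-coupled bicarbonate transporter known from neurons, fell to 3.07, 4.49 and 1.06 CPM in siMt2 libraries, against 8.49, 8.13 and 11.5 CPM in siNT libraries (-1.63, SE 0.32; adjusted p = 2.53e-04). The siMt2 counts were small, at 24, 18 and 9 for Slc4a11 and 21, 19 and 3 for Slc4a10. The last of these is no more than a count of 0 leaves possible. The anion exchanger gene Slc4a2 stood at 121, 135 and 89.8 CPM in siMt2 and 151, 136 and 136 CPM in siNT libraries (-0.27, SE 0.12; adjusted p = 0.111), and it passed in 6 of the alternatives. Slc4a3, the cardiac anion exchanger gene, was at 19.1 CPM in siMt2 and 19.2 CPM in siNT libraries on average, and Slc26a6 (-0.46, SE 0.23) and Slc26a11 (0.31, SE 0.21) did not pass. Slc26a6 passed without siMt2 replicate 1 (log2 fold change -0.81, edgeR adjusted p = 0.017) and with libraries thinned to equal depth (-0.75, 0.0303).

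Genes for partners of the exchangers were divided, with 2 higher, 2 lower and 2 not passing of 6 tested. Chp1, a calcium-binding partner of sodium-proton exchangers, fell (log2 fold change -0.68, SE 0.07; edgeR adjusted p = 7.39e-08), and Ahcyl1, the IRBIT protein that activates bicarbonate transporters and NHE3, fell (-0.42, SE 0.05; adjusted p = 4.15e-07). Ezr, which ties NHE3 to the actin skeleton, rose (0.42, SE 0.06; adjusted p = 1.83e-05), and so did Slc9a3r2, the NHERF2 scaffold of NHE3 (0.49, SE 0.11; adjusted p = 0.00107). The related scaffold genes Slc9a3r1 (-0.10, SE 0.11) and Pdzk1 (-0.33, SE 0.18) did not pass.

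Lactate leaves cells together with a proton through monocarboxylate transporters. Slc16a1, encoding MCT1, rose (log2 fold change 0.49, SE 0.06; edgeR adjusted p = 5.13e-07), with 278, 290 and 323 CPM in siMt2 and 208, 220 and 205 CPM in siNT libraries. Slc16a7, encoding MCT2, rose too (0.71, SE 0.09; adjusted p = 7.66e-07). Their chaperones Bsg (-0.17, SE 0.16) and Emb (-0.17, SE 0.36) did not pass. Slc16a3, encoding the hypoxia-inducible exporter MCT4, had 42 counts in all and was not tested. Tmem175, a lysosomal channel that conducts protons and potassium, was the 1 proton channel tested and rose (0.72, SE 0.15; adjusted p = 4.19e-04).

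Regulators of the hypoxia pathway, given because Car9 is a HIF target, did not pass: 0 of 6 tested had an adjusted p under 0.05 in edgeR, 0 in DESeq2 and 0 in limma-voom, and 1 (Egln1) had an unadjusted p under 0.05 in edgeR. Over all genes tested, 50.9% passed in edgeR. The groups did not overlap for Hif1a, Vhl and Egln1, and they overlapped for Arnt, Egln2 and Hif1an. Of all genes tested, 57.6% had groups that did not overlap. All of these are RNA levels, and neither HIF protein nor its activity was measured. Hif1a, the oxygen-regulated HIF subunit, was at 269, 264 and 275 CPM in siMt2 and 254, 253 and 256 CPM in siNT libraries (log2 fold change 0.08, SE 0.05; edgeR adjusted p = 0.156). Upper quartile scaling called Hif1a and the HIF-degrading Vhl higher (adjusted p = 0.0333 and 0.0413), and thinning to equal depth called Hif1a (0.04). The oxygen sensor gene Egln3, itself a HIF target, had 3 counts in siMt2 and 0 in siNT libraries and was not tested. Of proton sensors, Asic1 (-0.13, SE 0.32) and Asic3 (-0.97, SE 0.55) were tested; 0 passed in edgeR, DESeq2 or limma-voom, and 0 had an unadjusted p under 0.05 in edgeR.

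**Figure D4:**
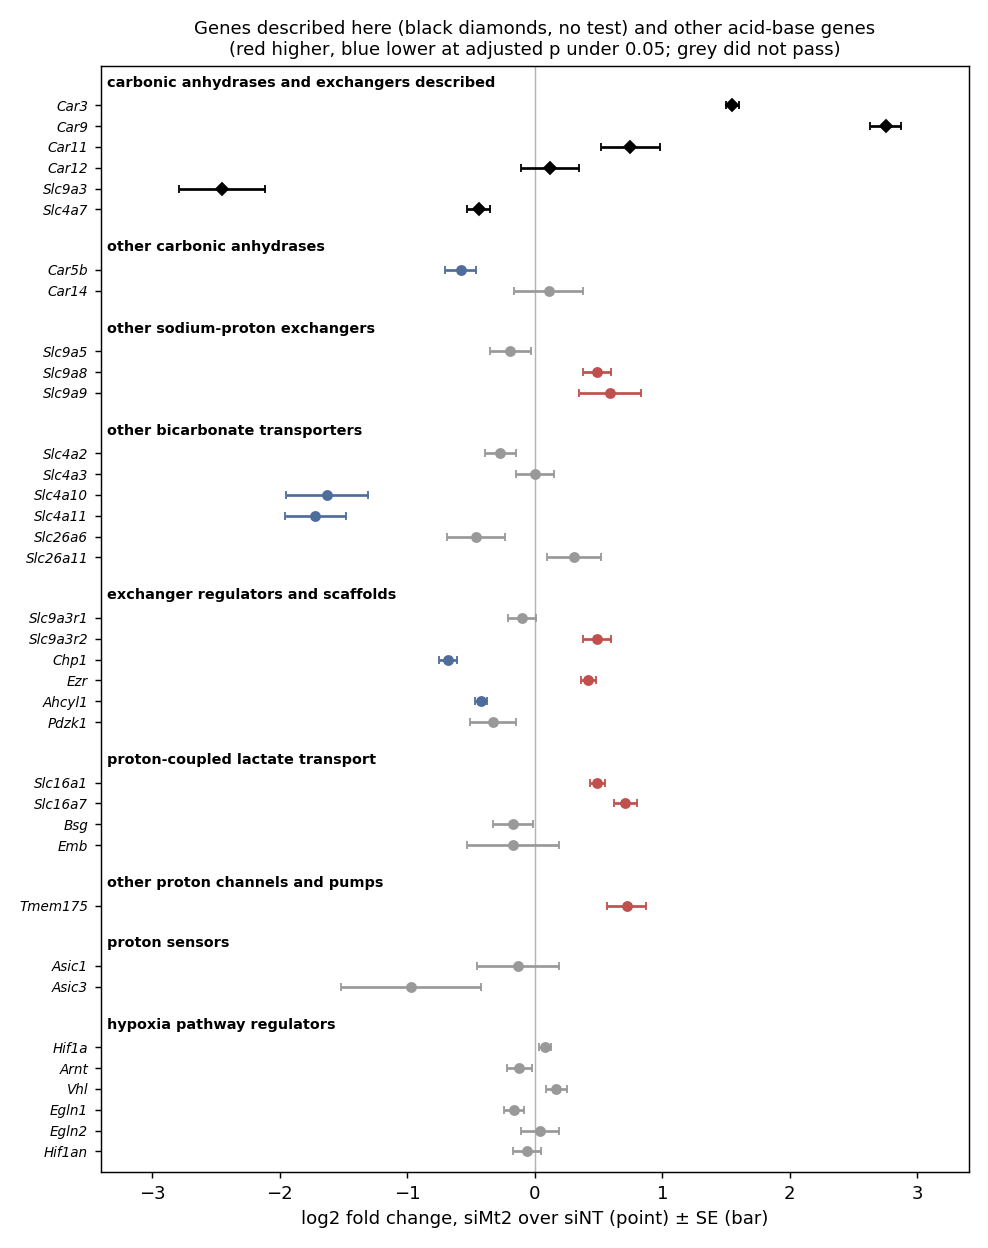
Log2 fold change of siMt2 over siNT with its SE for the 6 genes described here (black diamonds, no test) and for 30 other acid-base genes tested, in which red is higher, blue lower and grey not past an adjusted p of 0.05. Car9 and Slc9a3 have the outermost values, and the 6 hypoxia regulators lie between -0.16 (Egln1) and 0.17 (Vhl).

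The genes closest to each of the 6 in pattern were found by the Euclidean distance of log2 CPM over the 6 libraries, each gene centred on its own mean, among 9278 genes with a mean of at least 5 CPM. For Car9 the nearest was Tgfbi, a matrix protein gene (distance 0.19), followed by Knstrn (0.50) and Nusap1 (0.51), both genes of the mitotic spindle. For Car3 they were Myl9 (0.14), a myosin light chain gene of smooth muscle, Angptl2 (0.14) and the chemokine gene Cxcl12 (0.15). Slc9a3 was nearest to the chaperone gene Hspa4l (0.47), Hdac9 (0.59) and the zinc finger gene Prdm10 (0.64). Car11 was nearest to P3h4, Pmpca and Prr13 (0.16 to 0.17), Car12 to Cachd1, Cmtm4 and Nadk2 (0.11 to 0.12), and Slc4a7 to Kcnv2, Ing1 and Ctps2 (0.09 to 0.12). The 6 libraries fall into 2 groups, so a small distance mainly reflects a like difference between the groups. None of the 6 genes was among the 3 nearest of another. Their fold changes differed, so this outcome says little about how they are related.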

How the data were processed

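For each library, gene counts were deposited by the authors as whole numbers without normalization. The submitters' processing notes name the build rn6 and, of tools, featureCounts, HISAT2 2.2.1, Trimmomatic 0.40, DESeq2 and limma, without order or settings; strand and multi-mapping rules are not given in the sources used here. Groups came from the sample titles, and 0 columns were left without a sample. Row names that a spreadsheet had turned into dates (25 rows, 0.26% of counts) stayed in totals and tests but are not named. Names were matched to RefSeq (GRCr8), with 14407 rows matching a symbol and 744 a synonym only.

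Counts were fitted in R 4.3.3 with edgeR 4.0.16 (filterByExpr with minimum count 10, TMM, quasi-likelihood test with robust dispersion, two-sided, Benjamini-Hochberg over all genes tested, threshold 0.05). SE is the log2 fold change divided by the root of the F statistic. Alternatives were other scalings, filters, the replicate block, each library left out, DESeq2 1.42.0, limma-voom (limma 3.58.1) and libraries thinned to equal depth in a single random draw. The procedure was tested on simulated counts in which far fewer genes changed than were called here. That test does not show how the procedure behaves when so many genes differ. In a chi-square over genes, squared differences between 2 libraries of 1 group were 2.04 to 3.76 times those from counting error alone. Between libraries of different groups they were 17.9 to 29 times. Each library was treated as 1 replicate, although this ratio does not show whether libraries came from separate cultures. Named are the 9 genes, up to 6 tested genes per list, lowest adjusted p first, and the 3 nearest genes by pattern; other genes were named after their values were seen. Some listed exchanger genes are not reported here. The genes and lists were chosen with earlier results of these data known.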

Additional observations from a re-analysis of the deposited data

How the results depend on the processing

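Of the listed genes' fold changes, those of Car11 (1.02) and Car12 (0.45) moved by more than the replicate spread, in each case with libraries thinned to equal depth. Thinning was a single random draw that was not repeated, so random sampling and depth cannot be told apart in it. The cause was not tested. The number of genes called was 5971 and lay between 4961 (DESeq2) and 6276 (no filter) over the alternatives, from 5109 to 6254 with 1 library left out. Of other acid-base genes, 12 passed, and 11 to 14 over the alternatives. The Mt2a log2 fold change lay between -0.56 and 0.052 with 1 library left out, 0.052 being the value without siNT replicate 2, its highest library. Replicate numbers are shared by the groups, but same-numbered libraries did not deviate together (correlations -0.00, -0.06 and 0.02). These values cannot tell whether same-numbered libraries shared a culture or a day, which the labels do not say. With the replicate block, 5897 genes and 13 acid-base genes passed.

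Fold changes of genes that did not pass could change sign. With 1 library left out, they ranged from -0.58 to 0.082 for Asic1, -0.16 to 0.33 for Car14, -0.10 to 0.15 for Egln2, -0.42 to 0.006 for Emb, -0.043 to 0.14 for Nadk2 and -0.068 to 0.11 for Slc4a3. Thinning to equal depth reversed Arnt (0.032) and Egln2 (-0.006), and Slc4a3 reversed with upper quartile scaling (0.035), the stricter filter (0.004) and limma-voom (0.006). Depth limits Slc9a3, with 6 to 9 counts per siMt2 library, Slc4a10 (3 to 21) and Slc4a11 (9 to 24). It also limits genes with too few counts to test, such as Car8.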
